A study of Mus musculus with 6 samples.

Results

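A set of 10 genes for AP-1 subunits and related growth-signal factors was followed across the 6 libraries: the Fos genes Fos, Fosb, Fosl1 and Fosl2, the Jun genes Jun, Junb and Jund, and Egr1, Ier2 and Myc. They were chosen by gene symbol, and all 10 were found among the 35976 genes of the count table. All 10 also passed the filter on low counts, which left 13761 genes for testing. The cells were mouse chondrocytes from the articular cartilage of the hind limb of embryos at day 18.5, of strain C57BL/6 x 129S4/SvJae. They were expanded on culture plastic in serum-containing medium for 16 population doublings. All cells received doxycycline at 2 µg/ml to switch on a transgene for histone H3.3, so the controls carried the drug and a transgene as well. In the H3K9M group (3 libraries, replicates 1, 3 and 5) the transgene carried a lysine-to-methionine change at residue 9, and the label gives H3K9 methylation as suppressed. In the H3WT group (3 libraries, replicates 1, 2 and 4) it encoded wild-type H3.3. The labels used here do not say which promoter drove the transgene or whether the replicates came from separate embryos. P-values therefore measure only the spread between these samples, which may be technical. The comparison asked whether these factors differed between expanded chondrocytes with and without the mutant histone.

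Fos and Jun proteins form AP-1, a dimer that binds DNA through a basic region and holds together through a leucine zipper. Fos proteins need a Jun partner, whereas Jun proteins can also pair with one another. Fos, Fosb, Egr1 and Ier2 are immediate early genes, transcribed within minutes of serum or stress without new protein synthesis, and their transcripts are short-lived. Fosl1 and Fosl2 accumulate later and persist in growing cells. Jund is often present at a steady level. In cartilage, AP-1 is known for the control of matrix protease genes and of chondrocyte growth and differentiation, and Myc for growth and ribosome production.

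The sequences of the 7 AP-1 genes show what makes them 1 family and how far their transcripts can be told apart. Each stretch below has 93 bases of coding sequence from the GENCODE M21 transcripts (build GRCm38), and the capitals mark the 9 codons of the DNA-contacting signature of the basic region. The signature was found by translating each transcript and searching for asparagine, any pair of residues, alanine, alanine, any pair, cysteine or serine, and arginine. It occurred once in each of the 7.
Fos: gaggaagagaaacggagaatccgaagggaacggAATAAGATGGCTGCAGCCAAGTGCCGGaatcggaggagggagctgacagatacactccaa
Fosb: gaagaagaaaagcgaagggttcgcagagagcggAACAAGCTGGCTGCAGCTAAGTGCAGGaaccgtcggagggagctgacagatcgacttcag
Fosl1: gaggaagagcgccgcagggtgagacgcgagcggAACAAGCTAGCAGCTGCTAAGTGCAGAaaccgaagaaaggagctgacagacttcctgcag
Fosl2: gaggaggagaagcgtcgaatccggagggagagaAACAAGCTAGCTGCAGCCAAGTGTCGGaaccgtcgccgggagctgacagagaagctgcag
Jun: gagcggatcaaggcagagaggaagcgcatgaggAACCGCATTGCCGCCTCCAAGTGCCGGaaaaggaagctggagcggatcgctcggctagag
Junb: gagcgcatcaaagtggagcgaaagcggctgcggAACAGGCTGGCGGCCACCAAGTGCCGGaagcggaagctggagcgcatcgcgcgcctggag
Jund: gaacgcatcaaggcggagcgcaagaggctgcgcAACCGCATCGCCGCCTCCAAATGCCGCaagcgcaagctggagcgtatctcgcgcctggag

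Over these 93 bases the Fos genes were 67.7% (Fosl1 and Fosl2) to 77.4% (Fos and Fosb) identical to one another. The Jun genes were 77.4% to 81.7% identical, and a Fos and a Jun gene 43.0% to 53.8%. Over whole transcripts, the longest run of bases shared exactly by any pair of the 7 was 20, between Jun and Jund. The Fosl2 stretch lies at chr5:32150433-32150525 on the plus strand, in exon 3 of 4. The stretches of Fos (chr12:85475604-85475696, plus), Fosb (chr7:19306562-19306654, minus) and Fosl1 (chr19:5454425-5454517, plus) also lie in exon 3 of 4. The Junb stretch lies at chr8:84977548-84977640 on the minus strand, in the 1 exon of that transcript. The Jun stretch is at chr4:95050420-95050512 (minus) and that of Jund at chr8:70699838-70699930 (plus). Jun, Jund and Ier2 likewise have 1 exon in their longest transcript. In GENCODE M21, Fosl1, Jun, Junb and Jund each overlap a gene on the opposite strand (Ccdc85b, Junos, Prdx2 and Gm11175), and the strand setting of the counts is not given in the sources used here. Reads over those overlaps cannot be told apart without strand. The overlap of Junb with Prdx2 comes from the second, shorter GENCODE transcript of Junb.

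Total counts ran from 15113675 to 19606082 a library. The libraries did not divide by group on the first principal component of log2 expression (35.5% of the variance): H3K9M replicate 3 and H3WT replicate 2 scored highest (51.0 and 49.1), while the remaining H3WT libraries scored lowest (-56.2 and -51.5). The second component (28.8%) was positive in all H3K9M and negative in all H3WT libraries. Results are also given without H3K9M replicate 3 and H3WT replicate 2 where that changes a call. This pair was picked after these scores were seen. The cells carried chondrocyte markers, whose 17 listed genes summed to 7447 to 11707 CPM (TMM-normalised read counts scaled to the library total) in H3K9M and 7357 to 19834 CPM in H3WT. Fibroblast markers summed to 34176 to 47137 and 23877 to 49612 CPM over 9 genes. Macrophage and blood markers summed to 8.04 to 16.5 CPM in H3K9M and 3.84 to 6.29 CPM in H3WT over 8 genes. Ptprc, Adgre1, Tyrobp and Hbb-bs were at 0 in all libraries. The 5 endothelial markers together were under 1 CPM in all 6 libraries, with Cdh5 and Emcn at 0. The H3.3 genes overlapped between the groups, with H3f3a at 746 to 850 CPM against 749 to 939 and H3f3b at 256 to 262 against 243 to 257. Counts per gene cannot separate transgene from endogenous, or mutant from wild-type, H3.3 transcripts.

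None of the 10 genes passed an adjusted p of 0.05 (edgeR quasi-likelihood test, Benjamini-Hochberg adjustment over all genes tested), where 0% of all genes did. At an unadjusted p under 0.05 there were 2 of the 10, Fosl2 lower and Junb higher in H3K9M, against 12.2% of all genes (6.42% higher and 5.77% lower). The same 2 genes were those whose groups did not overlap, against 19.4% of all genes (10.7% higher and 8.68% lower). Both shares among the 10 lie near those of all genes. The DESeq2 Wald test called 1 of the 10, Fosl2, and 390 of all 13761 genes tested. With limma-voom 0 genes passed, among the 10 or among all genes. Of the 10, 6 had a positive and 4 a negative log2 fold change, with a median of 0.04 against -0.003 over all genes.

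**Figure D1:**
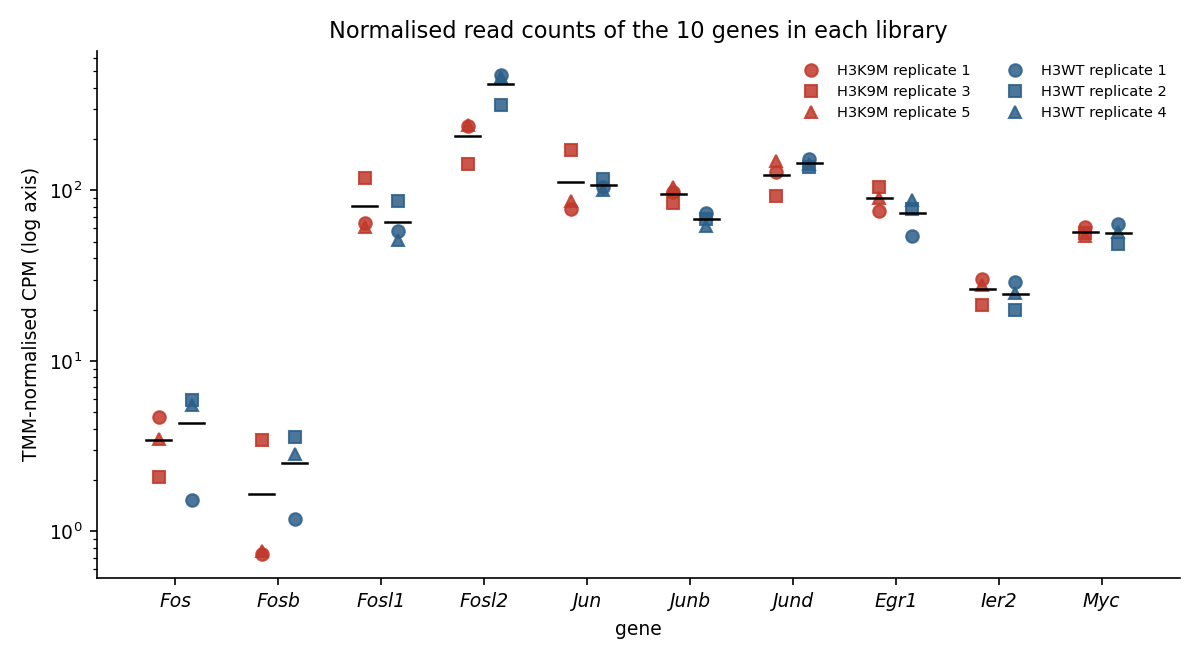
TMM-normalised CPM of the 10 genes (log axis) in each library; red points are H3K9M, blue points H3WT, the shape gives the library within the group and the black bar the group mean (n = 3). Fosl2 and Junb are the genes whose red and blue points do not overlap, and Fos and Fosb lie below 6 CPM in every library.

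Fosl2 (Fra-2), which encodes the AP-1 subunit that persists in growing cells and is known for a role in cartilage and bone, was the member with the largest difference. H3K9M replicates 1, 3 and 5 had 239.0, 142.4 and 241.8 CPM, and H3WT replicates 1, 2 and 4 had 477.7, 318.5 and 462.6 CPM. All 3 H3K9M libraries lay below all 3 H3WT libraries, and the lowest value of each group came from the pair that stood apart on the first component. The means were 207.8 ± 56.6 and 419.6 ± 87.9 CPM (SD, n = 3 each). On the log2 scale the difference was -1.01 (SE 0.24, 95% interval -1.58 to -0.45), with an adjusted p of 0.222 in the edgeR test, and Fosl2 ranked 204 of 13761 genes by p. Without H3K9M replicate 3 and H3WT replicate 2 the log2 fold change was -0.96 (adjusted p 0.0159, edgeR). In that fit 302 of 13821 genes passed. The pair was chosen after the first component of these data was seen, so the fit is a description. Leaving out any 1 library gave Fosl2 an adjusted p of 0.0835 to 0.495 (edgeR). The DESeq2 Wald test on all libraries gave -1.02 (adjusted p 0.0054), with 390 of 13761 genes passing.

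Markers of other cell types differed between libraries too, and their part in the Fosl2 difference was not tested. Skeletal muscle markers (10 genes) summed to 165, 233 and 26.9 CPM in H3K9M replicates 1, 3 and 5 against 32, 13.2 and 27.4 CPM in H3WT replicates 1, 2 and 4, with Myf5 and Pax7 at 0 in all. Most of the H3WT sums in replicates 1 and 4 was Acta1 (26.2 and 24.04 CPM). H3K9M replicate 5, with the lowest sum of its group, had more Myod1 (4.29 CPM), Des (8.78) and Tnnt3 (5.97) than any H3WT library (at most 1.04, 6.80 and 2.08). Its Myh3 and Myog were also higher than in any H3WT library. Its Acta1 (5.97 CPM) was lower than in H3WT replicates 1 and 4, and Ckm and Actn2 were at 0, as in H3WT. Osteoblast markers (6 genes) summed to 75.2, 47.6 and 68.7 CPM in H3K9M and 120, 51.5 and 98.3 CPM in H3WT, in the same order of libraries. The osteoblast sum and Fosl2 were both lowest in replicate 3 within H3K9M and in replicate 2 within H3WT. Much of each group's sum was Runx2, which hardly differed (group means 48.5 and 51.7 CPM, log2 fold change -0.09). Ibsp (-2.13), Sp7 (-1.28) and Alpl (-1.22) were lower in H3K9M, and Dmp1 (0.71) was higher. Of these genes only Ibsp had groups that did not overlap. Of the 17 chondrocyte markers 16 were lower in H3K9M (median log2 fold change -1.03), but without H3WT replicate 2 there were 12 lower and 5 higher (median -0.22). Their sum, most of which was Col2a1 (mean 6304 CPM in H3K9M and 9642 CPM in H3WT), was lowest in H3WT replicate 1, the library with the most Fosl2. That lowest sum (7357 CPM) was close to the sum in H3K9M replicate 1 (7447 CPM). In bulk RNA, fewer cells of a type and less RNA per cell cannot be told apart.

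Fosl1 (Fra-1), the other late Fos gene, did not follow Fosl2. It had 64.8, 118.3 and 61.1 CPM in H3K9M and 57.4, 86.1 and 51.1 CPM in H3WT. The groups overlapped, and the highest value in each came from H3K9M replicate 3 and H3WT replicate 2, the libraries lowest in Fosl2 within their groups. Its difference was 0.33 on the log2 scale (95% interval -0.38 to 1.04, adjusted p 0.712, edgeR), and it was -0.04 without H3K9M replicate 3.

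Fos, the prototype immediate early gene, was scarce. It had 70, 43 and 68 reads in H3K9M and 27, 114 and 94 reads in H3WT. On the CPM scale these were 4.69, 2.08 and 3.47 against 1.52, 5.92 and 5.54. H3WT held both the lowest and the highest library, so its range enclosed the H3K9M values. Counting error alone does not span the H3WT values: 27 reads have an exact 95% Poisson interval of 17.8 to 39.3 and 94 reads one of 76.0 to 115. The fitted log2 difference was -0.34 (95% interval -1.71 to 1.02, adjusted p 0.867, edgeR), an interval that admits a 2-fold difference in either direction. It was 0.22 without H3K9M replicate 3 and H3WT replicate 2.

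Fosb, which encodes the other rapidly induced Fos protein, was scarcer still, with 11, 71 and 15 reads in H3K9M and 21, 69 and 48 in H3WT. H3K9M replicate 3 alone held more reads than the other H3K9M libraries together. Its log2 fold change was -0.61 (95% interval -2.47 to 1.24, adjusted p 0.814, edgeR), and -1.73 without H3K9M replicate 3 (adjusted p 0.567, edgeR). The SD of log2 CPM was 1.18 within H3K9M and 0.80 within H3WT.

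Junb, whose protein is a Jun partner that can restrain the activity of Jun, was the member with the opposite separation. H3K9M replicates 1, 3 and 5 had 97.3, 84.7 and 104.1 CPM, and H3WT replicates 1, 2 and 4 had 73.9, 67.9 and 61.8 CPM. The lowest H3K9M library exceeded the highest H3WT library by less than the range within either group. The means were 95.4 ± 9.86 and 67.9 ± 6.07 CPM (SD, n = 3 each). On the log2 scale Junb differed by 0.49 (SE 0.13, 95% interval 0.19 to 0.79, adjusted p 0.239, edgeR). With DESeq2 the adjusted p was 0.0904, and without H3K9M replicate 3 and H3WT replicate 2 it was 0.0835 (edgeR), so Junb passed in neither.

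Jun, the founding Jun protein, had 78.1, 172.2 and 86.6 CPM in H3K9M and 105.3, 117.1 and 100.3 CPM in H3WT. H3K9M replicate 3 lay above and the other H3K9M libraries below all H3WT libraries, which lay close together. For Jun the log2 fold change was 0.06 (95% interval -0.62 to 0.75, adjusted p 0.957, edgeR), with the sign resting on that 1 library. Without H3K9M replicate 3 it was -0.38 (adjusted p 0.433, edgeR). Junos, the antisense neighbour of Jun, had 16.2 CPM in that library against 2.65 to 9.55 CPM in the other 5, and its part in the Jun value was not tested.

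Jund, the steady Jun gene, had 127.6, 92.4 and 149.3 CPM in H3K9M and 152.8, 136.5 and 143.4 CPM in H3WT. The groups overlapped, and H3K9M replicate 3 was the lowest library. For Jund it was -0.23 on the log2 scale (95% interval -0.63 to 0.18, adjusted p 0.641, edgeR), and -0.05 without H3K9M replicate 3.

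**Figure D2:**
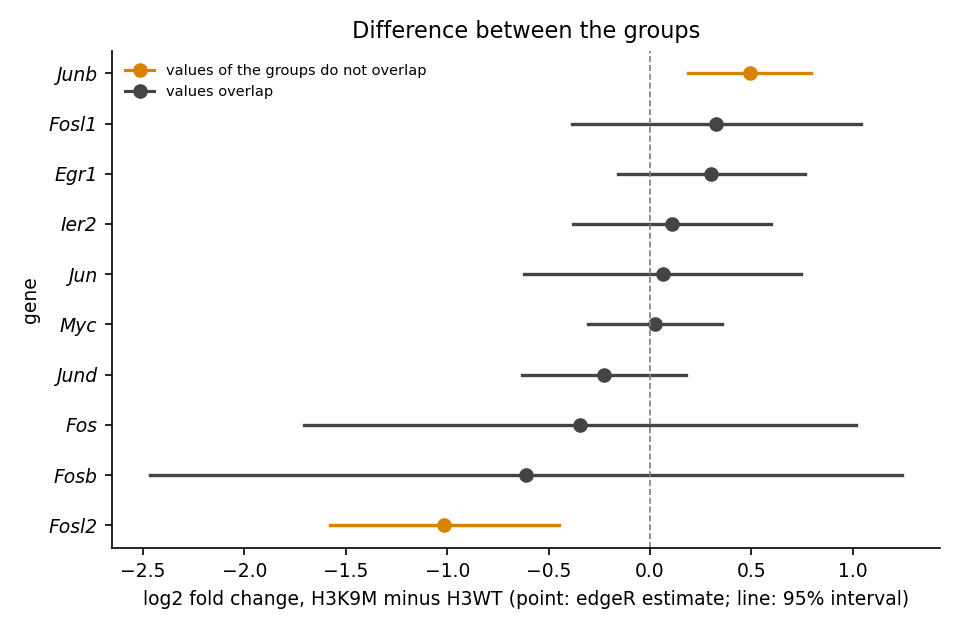
Log2 fold changes of the 10 genes (H3K9M minus H3WT) estimated by edgeR over 3 libraries against 3; lines are 95% intervals, and orange marks genes whose groups do not overlap. The intervals of Fosl2 (-1.58 to -0.45) and Junb (0.19 to 0.79) leave out 0 before any adjustment for the number of genes, and those of the other 8 include it.

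The 3 factors outside AP-1 had overlapping groups. Egr1, a zinc-finger factor induced by the same kinase and serum response signals as Fos, had 76.0, 104.3 and 90.6 CPM in H3K9M and 54.2, 77.4 and 88.4 CPM in H3WT. H3WT replicate 1 was lowest, as it was for Fos. The log2 fold change was 0.30 (95% interval -0.16 to 0.76, adjusted p 0.582, edgeR), and leaving out H3WT replicate 1 gave 0.12, H3WT replicate 4 0.46. Ier2, a short nuclear protein gene of the immediate early class, had 30.1, 21.3 and 28.0 CPM against 28.9, 19.8 and 24.9 CPM. The lowest Ier2 library of each group was again from the pair that stood apart. Its log2 fold change was 0.11 (95% interval -0.38 to 0.60, adjusted p 0.883, edgeR).

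Myc, which drives ribosome production and growth, had the narrowest range of log2 CPM over the 6 libraries among the 10 (0.39). Within H3WT its SD of log2 CPM (0.20) was above those of Jund (0.08), Jun (0.11) and Junb (0.13). Myc had 61.2, 56.4 and 53.9 CPM in H3K9M and 63.4, 48.4 and 56.8 CPM in H3WT. The H3WT range enclosed all H3K9M values. For Myc the log2 difference was 0.02 (95% interval -0.30 to 0.35, adjusted p 0.965, edgeR), so the interval leaves out an H3K9M level above 1.28 times or below 0.81 times that in H3WT.

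**Figure D3:**
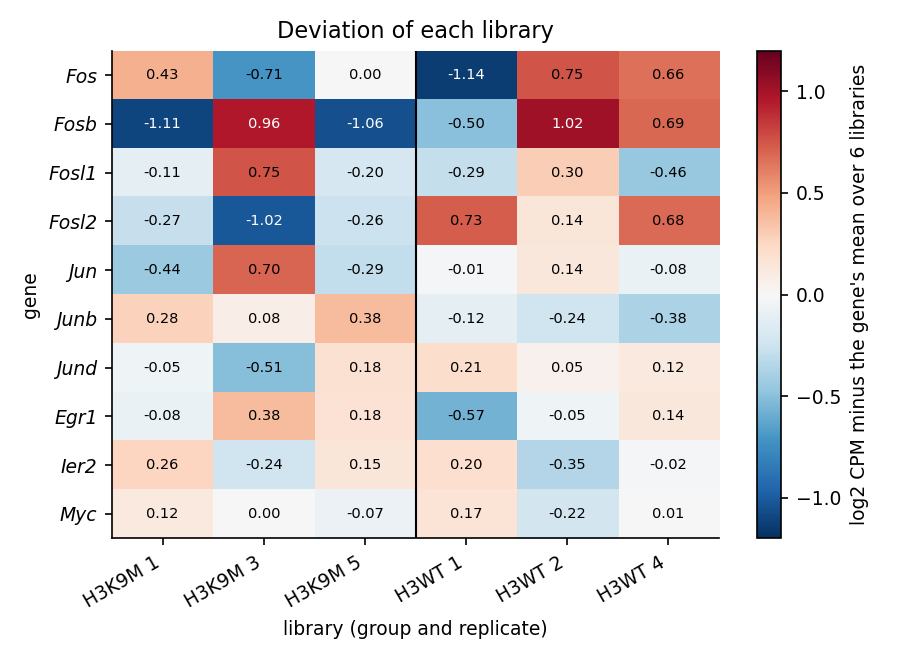
Log2 CPM of each gene in each library minus its mean over the 6 libraries (rows are genes, columns libraries, the black line divides H3K9M from H3WT). H3K9M replicate 3 had the highest Fosl1 (0.75), Jun (0.70) and Egr1 (0.38) and the lowest Fosl2 (-1.02) and Jund (-0.51). H3WT replicate 1 had as many extremes, with the highest Fosl2 (0.73), Jund (0.21) and Myc (0.17) and the lowest Fos (-1.14) and Egr1 (-0.57).

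The 10 genes did not move as 1 block. The highest library was H3K9M replicate 3 for 3 genes, H3WT replicate 1 for 3, H3WT replicate 2 for 2, and H3K9M replicates 1 and 5 for 1 each. Each library was the lowest for 2 genes, except H3K9M replicate 5, which was the lowest for 0. The range over the 6 libraries was widest for Fosb (2.12 on the log2 scale), Fos (1.89) and Fosl2 (1.74) and narrowest for Myc (0.39) and Ier2 (0.61), against a median of 0.86 over all genes tested. The SD of log2 CPM within H3WT was 1.07 for Fos but 0.11 for Jun and 0.08 for Jund, against a median of 0.29 over all genes. Within H3K9M it was 0.57 for Fos, 0.62 for Jun and 0.35 for Jund, against a median of 0.25.

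Levels were compared between genes per length of the longest transcript, as RPKM (CPM divided by the length in kilobases). In H3WT the order was Jund (86.5 ± 4.89), Fosl2 (64.2 ± 13.4), Junb (37.5 ± 3.36), Fosl1 (34.8 ± 10.0), Jun (33.7 ± 2.70), Myc (24.0 ± 3.22), Egr1 (16.4 ± 3.90), Ier2 (16.1 ± 3.01), Fos (2.05 ± 1.16) and Fosb (0.67 ± 0.32; SD, n = 3). Jund stood above Fosl2 and Fosl2 above Junb in each H3WT library, whereas the ranges of Junb, Fosl1 and Jun overlapped, as did those of Egr1 and Ier2. In H3K9M, Jund was again first (73.8 ± 17.2), Junb was second (52.7 ± 5.45), and Fosl2 (31.8 ± 8.66) came after Fosl1 (43.7 ± 17.2) and Jun (35.2 ± 16.3). Jund lay above Junb and Junb above Fosl2 in each H3K9M library, although the ranges of Jund and Junb overlapped. Fosl1 and Jun changed place between libraries: both lay below Fosl2 in H3K9M replicates 1 and 5 and above Junb in replicate 3, where Fosl1 (63.5) also exceeded Jund (55.4).

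The Fos genes summed to 71.6 to 87.1 RPKM in H3K9M and 98.7 to 105 RPKM in H3WT. The Jun genes summed to 155 to 174 and 152 to 165 RPKM, which overlapped. Fosl2 made up 49.6%, 25% and 51.7% of the summed Fos level in the H3K9M libraries, against 69.7%, 49.4% and 69.7% in the H3WT libraries, in the order of replicates used above. These shares overlapped between the groups, and H3WT replicate 2 had both the lowest Fosl2 (48.7 RPKM) and the highest Fosl1 (46.2 RPKM) of its group. Junb made up 34.8%, 29.96% and 33.02% of the summed Jun level in H3K9M and 24.7%, 24.0% and 22.5% in H3WT, which did not overlap. The ratio of Fosl2 to Junb reads needs no scaling between libraries. It was 2.46, 1.68 and 2.32 in H3K9M and 6.46, 4.69 and 7.49 in H3WT (means 2.15 ± 0.41 and 6.21 ± 1.41, SD, n = 3). Fosl2 and Junb were singled out after their values were seen. The ratio and the shares of these genes therefore describe the same differences again and were not tested.

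**Figure D4:**
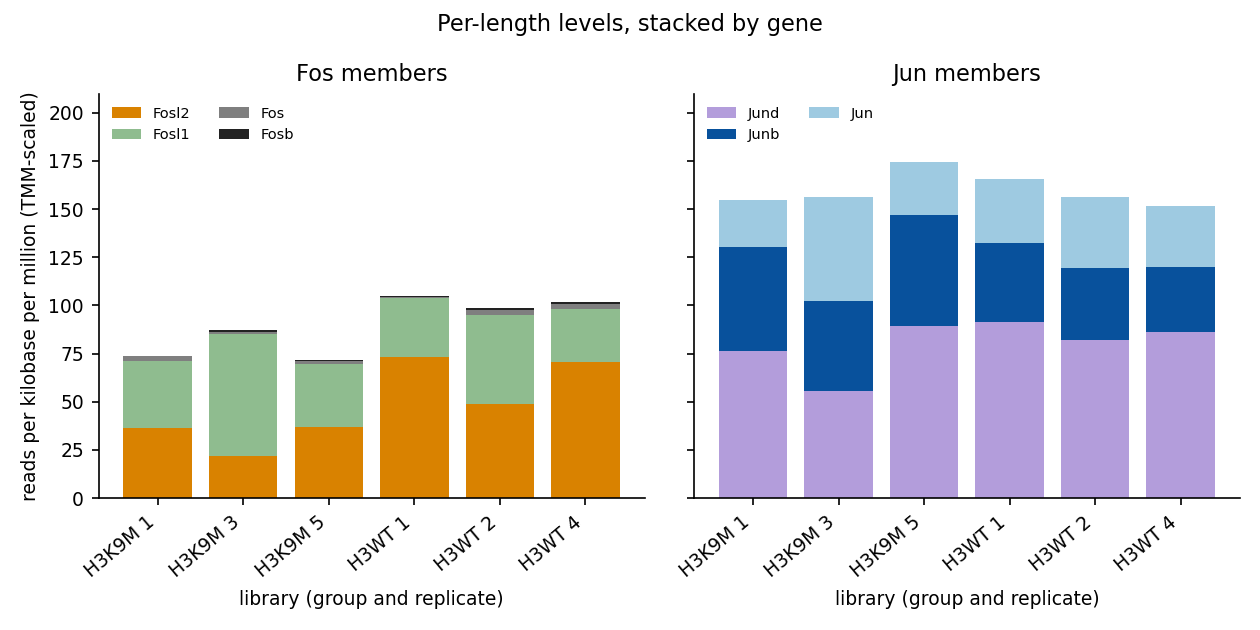
Per-length levels of the Fos genes (left) and the Jun genes (right) in each library, in RPKM, stacked by gene from 0. The Fosl2 block is 21.8 to 37.0 in the H3K9M libraries and 48.7 to 73.1 in the H3WT libraries, while the Jun totals overlap.

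The genes around these factors were then described by lists, each read against all tested genes, of which 49.6% had a positive log2 fold change and, at an unadjusted p under 0.05, 6.42% were higher and 5.77% lower. No gene of any list passed an adjusted p of 0.05 (edgeR). DESeq2 called 3 list genes, Zfp36l1, Hspe1 and Mmp3, among the 390 of 13761 genes that it called.

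Of 40 other immediate early genes 38 were tested, 27 lower and 11 higher in H3K9M, with a median log2 fold change of -0.28 (-0.16 without H3WT replicate 2 and -0.18 without H3WT replicate 4). At an unadjusted p under 0.05, 9 were lower and 3 higher. Zfp36l1, which encodes an RNA-binding protein that promotes decay of short-lived transcripts, had 23.2 to 30.5 CPM in H3K9M and 34.8 to 65.5 CPM in H3WT, a log2 difference of -0.92 (SE 0.24, edgeR adjusted p 0.234). Zfp36, its relative, had 14.9 to 21.0 against 24.1 to 37.4 CPM (-0.69, SE 0.23). Both were named for the smallest p among the lower genes, and their groups did not overlap. Of the 38 genes, 5 were lower and 3 higher without overlap, against 8.68% lower and 10.7% higher of all genes tested. In the other direction, Plk2, a stress-induced kinase gene, had 123 to 133 CPM against 78.4 to 108 CPM (0.50, SE 0.14). Dusp5, whose product removes phosphate from ERK in the nucleus, had 7.84 to 20.4 against 3.54 to 6.28 CPM (1.32, SE 0.43).

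Of 16 other bZIP genes that can pair with AP-1 proteins 11 were tested, 7 lower and 4 higher (median -0.10), and 0 had an unadjusted p under 0.05. Without H3K9M replicate 3, or without H3WT replicate 4, the median was 0.10, and it was -0.01 without H3K9M replicate 1. The smallest p-values belonged to Mafk and Creb5 among the higher genes (log2 fold changes 0.29 and 0.46) and to Atf7 among the lower (-0.21).

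Of 23 AP-1 target genes 21 were tested, 11 higher and 10 lower (median 0.05, or -0.02 without either H3K9M replicate 3 or H3WT replicate 4, 0.11 without H3K9M replicate 1 and 0.12 without H3K9M replicate 5), with 1 in each direction at an unadjusted p under 0.05. Mmp3, which encodes the matrix protease stromelysin, had 0.77 to 1.89 CPM in H3K9M and 3.0 to 7.63 CPM in H3WT, a log2 difference of -2.20 (SE 0.59, edgeR adjusted p 0.239). Mmp13, the main collagenase of cartilage, had 10.2 to 25.4 against 15.8 to 59.7 CPM (-1.24, SE 0.53), and its groups overlapped. Timp1, a secreted inhibitor of these proteases, had 925 to 1144 against 582 to 802 CPM (0.54, SE 0.17). Lif, a cytokine gene, had a log2 fold change of 0.70 (SE 0.38).

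Upstream of the factors, 24 of the 30 kinase and promoter factor genes were lower and 6 higher (median -0.14). With library size alone as the scaling, 19 were lower and 11 higher, and without H3K9M replicate 3 and H3WT replicate 2 the median was -0.06. At an unadjusted p under 0.05, 3 were lower and 0 higher. Rps6ka1, which encodes a kinase acting below ERK, had 7.97 to 11.6 CPM in H3K9M against 15.6 to 19.6 CPM in H3WT (log2 fold change -0.83, SE 0.23). Elk4, a partner of serum response factor at immediate early promoters, had 25.9 to 27.9 against 32.8 to 40.2 CPM (-0.45, SE 0.15). Among the higher genes, Elk3 had 0.33 and Crem 0.35 on the same scale.

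Feedback genes of the kinase pathway were listed together with other negative regulators, such as Fbxw7, that act on the factors themselves. This list was split, with 10 of 18 higher and 8 lower (median 0.03) and 2 lower at an unadjusted p under 0.05, Fbxw7 and Dusp7. The median was -0.04 without H3K9M replicate 3, H3K9M replicate 5 or H3WT replicate 1, and 0.10 without H3K9M replicate 1. Without H3K9M replicate 3 and H3WT replicate 2 there were 6 higher and 12 lower (median -0.14). Fbxw7, part of a ubiquitin ligase that marks Jun and Myc proteins for decay, had 17.7 to 20.7 CPM in H3K9M against 26.6 to 32.4 CPM in H3WT (log2 fold change -0.55, SE 0.17). Dusp7, an ERK phosphatase gene, had -0.47 (SE 0.19) and overlapping groups. Dusp10, a phosphatase gene for stress kinases, had 0.36 (SE 0.22). Dusp4 had 8.26 CPM in H3K9M replicate 3 and 0.15 to 0.90 CPM in the other 5 libraries, so its log2 fold change of 1.74 rests on that library and was -2.01 without it.

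Around Myc, 7 of 11 tested partners and antagonists were lower and 4 higher (median -0.01), which turned to 5 lower and 6 higher (median 0.04) with library size alone, and the median ran from -0.11 to -0.01 when 1 library was left out, with 1 in each direction at an unadjusted p under 0.05. Mxi1, an antagonist that competes for the partner Max, had 23.8 to 28.3 CPM in H3K9M against 11.4 to 19.8 CPM in H3WT (log2 fold change 0.69, SE 0.24). Max had 60.6 to 73.8 against 44.6 to 59.7 CPM (0.28, SE 0.16). Mga, another Max-binding factor, had 73.8 to 89.7 against 109 to 115 CPM (-0.47, SE 0.12), and Mlxip had -0.25 (SE 0.14). Of 25 Myc target genes of ribosome biogenesis and growth, 20 were higher and 5 lower (median 0.15, or 0.04 with 17 higher without H3WT replicate 4, 0.23 without H3WT replicate 2 and 0.30 without that library and H3K9M replicate 3), with 3 higher at an unadjusted p under 0.05, while Myc itself overlapped between the groups. Hspe1, a mitochondrial chaperonin gene, had 82.0 to 107 against 55.1 to 68.0 CPM (0.63, SE 0.15, adjusted p 0.208, edgeR). Npm1, a nucleolar protein gene, had 594 to 743 against 478 to 548 CPM (0.41, SE 0.14). Among the lower genes, those with the smallest p-values were Nolc1 (-0.15, SE 0.16) and Polr1b (-0.17, SE 0.19).

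**Figure D5:**
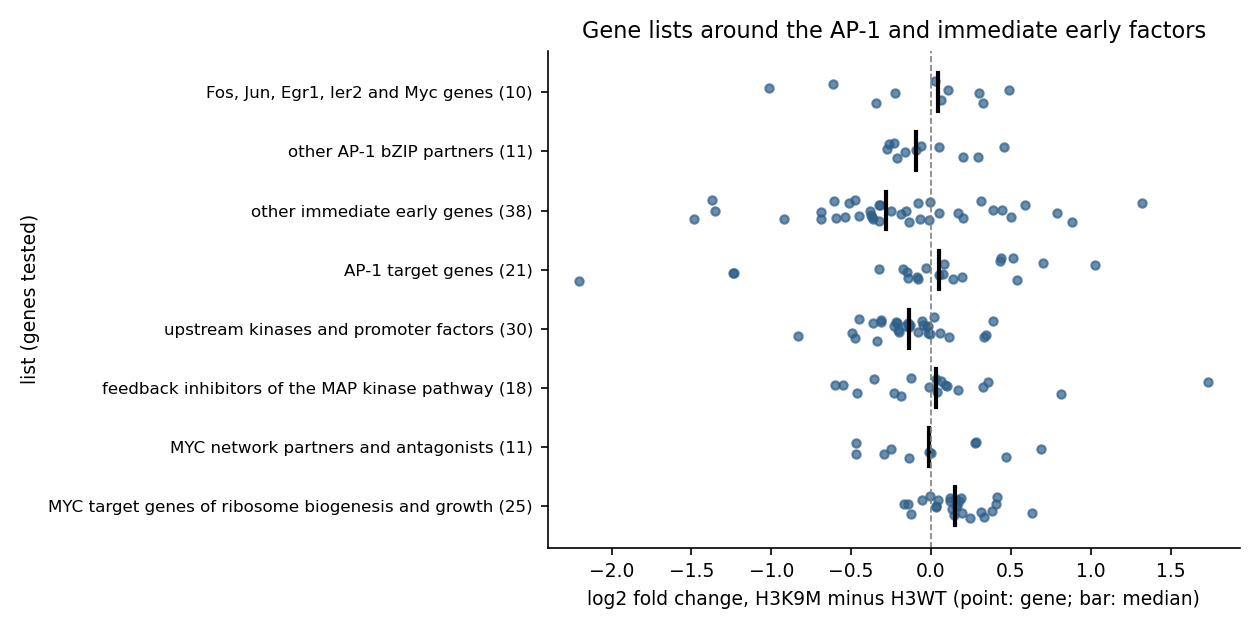
Log2 fold changes (H3K9M minus H3WT) of the tested genes of each list; points are genes, black bars medians, and the number of genes tested is in brackets. The medians run from -0.28 for the other immediate early genes to 0.15 for the Myc target genes, against -0.003 for all genes tested.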

How the data were processed

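Polyadenylated RNA from 6 samples was sequenced after library preparation with a Tecan Universal Plus mRNA kit, per the labels' protocols. The authors deposited raw read counts per gene symbol. HISAT2, featureCounts, DESeq2 and mm10 are named in the submitters' processing notes, without versions; annotation and strand setting are not given in the sources used here. Each column matched 1 sample title.

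The counts were fitted with edgeR 4.0.16 (R 4.3.3): filterByExpr, TMM scaling, and a robust quasi-likelihood fit with group as the only term over the 6 libraries, p-values (two-sided) adjusted by Benjamini-Hochberg over 13761 genes. The standard error is the log2 fold change divided by the square root of F, and the 95% interval uses the moderated t quantile. CPM are TMM-scaled. Log2 CPM for deviations and components used a prior count of 2. RPKM divide CPM by the longest GENCODE M21 transcript (GRCm38, the build named for the counts). No exact permutation test was run, since groups of 3 cannot reach a two-sided p below 0.1. Replicate pairs were not repeated libraries, since counts of any pair differed by at least 26.5 times the sampling variance.

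Alternatives used DESeq2 1.42.0, limma-voom (limma 3.58.1), other scalings and filters, a loess offset on GC content (span 0.5), and left-out libraries. The members and lists were chosen with earlier results of these data known. By rule, the genes named are the 10 members, the 2 genes of each list with the smallest p in each direction, and the 3 genes most like Fos over the libraries. A gene that this rule names is not reported here. Outside the rule stand the H3.3 genes, as a check. So do Junos, the muscle and osteoblast genes and the list genes called only under an alternative. All but the H3.3 genes were chosen after their values were seen.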

Additional observations from a re-analysis of the deposited data

How the results depend on the processing

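The log2 fold change of Fosl2 stayed negative in every other setting tried and that of Junb positive. Their adjusted p-values ran from 0.0054 to 0.495 and from 0.0835 to 0.531. The count of genes past an adjusted p of 0.05, 0 in the reported fit, was 390 with DESeq2, 36 with every gene that had a count, 302 without H3K9M replicate 3 and H3WT replicate 2, and 0 to 91 over the fits that left out 1 library (91 without H3WT replicate 2, 2 without H3K9M replicate 3). At an adjusted p under 0.10 it was 1. Of the 10 factors 1, Fosl2, passed with DESeq2 and without that pair, and 0 did in each fit that left out 1 library. Of the list genes 3 passed with DESeq2 and 5 without that pair (Zfp36l1, Arc, Plk2, Hbegf and Cxcl12), and 0 in the fits that left out 1 library. The cause of these differences was not tested. Counted once per named gene and setting, 549 log2 fold changes kept both sign and call, and 7 kept the sign and newly passed. The other 13 changed sign, with some genes counted under more than 1 setting. With limma-voom these were Jun (-0.021) and Dusp4 (-0.067). The others came from left-out libraries: over the fits without 1 library or without that pair, Fos ran from -0.75 to 0.22, Fosl1 from -0.035 to 0.60, Jun from -0.38 to 0.27, Ier2 from -0.015 to 0.25, Myc from -0.062 to 0.12, Dusp4 from -2.01 to 2.30 and Nolc1 from -0.28 to 0.041. Fos and Nolc1 changed sign only without the pair, Fosl1 without H3K9M replicate 3, Jun and Dusp4 without that library and without the pair, Ier2 without H3WT replicate 2, and Myc without H3K9M replicate 1, without H3WT replicate 2 and without the pair. With library size alone the median of all genes moved to 0.05. Without 1 library Fosl2 ran from -1.17 to -0.79 and Junb from 0.43 to 0.58. The GC offset gave Junb 0.65, above that range, and Fosl2 -0.97. It also moved Jund from -0.23 to -0.08 and Ier2 from 0.11 to 0.26. No paired analysis was possible because the groups share only 1 replicate number. Counting error is largest for Fos and Fosb, with as few as 27 and 11 reads a library.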

Other observations

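Among 9451 genes with a mean of at least 10 CPM, the 3 whose log2 CPM most resembled that of Fos over the 6 libraries were Fibp (Pearson's r 0.986), Ttc23 (0.978) and Dolpp1 (0.964). These are the top of a search over many genes with 6 points that share depth and culture, and they are given as a description. Fibp had 39.1, 34.4 and 36.8 CPM in H3K9M replicates 1, 3 and 5 and 30.9, 39.95 and 40.2 CPM in H3WT replicates 1, 2 and 4. As for Fos, H3WT replicate 1 was lowest and H3K9M replicate 3 next, although Fibp varied far less than Fos. None of the 3 was an immediate early gene of the lists.

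The myogenic regulator Myod1, one of the listed muscle markers, had 19.5, 57.0 and 4.29 CPM in the H3K9M libraries and 0, 1.04 and 0 CPM in the H3WT libraries. Myog, which acts after it in muscle differentiation, had 4.02, 9.42 and 0.20 CPM in H3K9M and 0 reads in H3WT. H3K9M replicate 3, with the most of both, was also the library with the most Jun and Fosl1 and the least Fosl2 and Jund. Bulk reads do not tell which cells held the muscle transcripts, and their part in those values was not tested.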
